A study of Mus musculus with 6 samples.

Results

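The genes described here are 37 interferon-stimulated and antigen processing genes of the mouse, measured in megakaryocytes, the cells that release platelets, with and without a knocked-in FOG1 allele. FOG1, the product of Zfpm1, is a cofactor of GATA transcription factors. The members were chosen by name, from genes that interferons are known to induce. Each was read from the brightest probe set that the platform annotation assigns to that gene alone. Such a probe set was found for 35 of the 37, out of 18193 genes in all, and 32 of the 35 were among the 11260 genes bright enough to be tested. Isg15 and Ifi44 had no probe set of their own and are not analysed here. Oas2, Oasl1 and Mx2 lay under the brightness filter, which fell at a signal of 10.3.

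The cells were differentiated with thrombopoietin from fetal liver, on a mixed C57BL/6xSv129 background, and mature megakaryocytes were separated by centrifugation over bovine serum albumin. All 6 arrays share this origin. The control group held 2 arrays of FOG1+/- cells (replicates 1 and 2) and 1 array of FOG1+/+ cells (replicate 3). The other 3 arrays came from cells whose genotype is given as FOG1-/- ki/ki, written FOG1 ki/ki below. The labels used here do not say what the knocked-in allele changes. The age of the fetuses and whether cultures were pooled are not given in them either. A "pair" below is a FOG1 ki/ki array and the control array with the same replicate number.

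Type I interferons bind a receptor made of Ifnar1 and Ifnar2, whose kinases Jak1 and Tyk2 activate Stat2. Stat2 acts in a complex with Irf9, which binds interferon-stimulated response elements, short repeats of GAAA, in the promoters of antiviral genes. Interferon gamma acts through another receptor and gamma-activated sites, and it induces Irf1 and the genes that cut and load peptides for class I molecules of the major histocompatibility complex. Megakaryocytes and platelets are known to carry several interferon-induced proteins, Ifitm3 among them, and class I molecules with their light chain B2m.

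The promoter stretches below are shown because the response element is the feature that the members are known for, and because it occurs both in genes that read lower in FOG1 ki/ki and in genes that read higher. They are RefSeq sequences of assembly GRCm38.p6, 5′ to 3′ on the gene's strand. Capitals mark matches to the full element, which is the core GAAANNGAA followed by 1 more A, or to its reverse complement. Each stretch runs 25 bases to either side of the matches, or stops at the last base before the transcription start.
Ifit1, chr19:34640760-34640838, plus strand: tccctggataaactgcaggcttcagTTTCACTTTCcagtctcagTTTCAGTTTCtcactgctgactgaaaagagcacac
Ifit3, chr19:34583348-34583441, plus strand: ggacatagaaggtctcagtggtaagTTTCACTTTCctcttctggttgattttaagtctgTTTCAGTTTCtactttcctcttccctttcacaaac
Oas1a, chr5:120907526-120907570, minus strand: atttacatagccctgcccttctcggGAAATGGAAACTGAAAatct
Oas3, chr5:120777700-120777759, minus strand: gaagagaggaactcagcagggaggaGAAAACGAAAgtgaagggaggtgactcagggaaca
Rsad2, chr12:26456538-26456597, minus strand: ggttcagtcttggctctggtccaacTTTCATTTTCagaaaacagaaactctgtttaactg
Bst2, chr8:71537562-71537627, minus strand: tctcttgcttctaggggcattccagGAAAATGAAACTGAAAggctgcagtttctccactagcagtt
Stat2, chr10:128270251-128270310, plus strand: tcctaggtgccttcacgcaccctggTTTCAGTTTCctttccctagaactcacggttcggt
B2m, chr2:122147523-122147582, plus strand: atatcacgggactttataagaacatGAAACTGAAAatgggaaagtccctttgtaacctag

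RefSeq promoter windows, from 250 bases before to 50 after the start, were found for 28 of the 37 members. Those of Oas2, Mx1, Mx2, Zbp1, Ifi27, Usp18, Dhx58, Parp9 and Parp14 were not in the table. The full element, searched on both strands with overlapping matches allowed, was in 13 of the 28, against 3.99% of 27025 genes with a window. The gamma-activated site TTCNNNGAA, which is its own reverse complement, was in 9 of the 28, against 9.55% of all genes. Ifit2 held no full element in its window. Of the 12 tested members with the full element, 7 read higher and 5 lower in FOG1 ki/ki. Of the 13 tested members with a window but without it, 9 read higher and 4 lower. Several members with the element differed little. Bst2, Ifitm3 and B2m on the lower side had log2 differences of -0.04, -0.02 and -0.0046, and Eif2ak2 on the higher side 0.06. A match is a description of the letters only. Ifit1 and Oas3, whose stretches are printed above, had differences of opposite sign.

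No tested member passed the test between FOG1 ki/ki and control. With limma, 0 of 32 had a Benjamini-Hochberg adjusted p under 0.05, where 0.151% of all 11260 genes did (0.0977% higher and 0.0533% lower). With the replicate number as a block it was again 0 of 32, where 0.835% of all genes passed (0.417% in each direction). At an unadjusted p under 0.05 there were 4 of 32, against 6.69% of all genes. The 3 lower ones were Ifit1, Ifit2 and Ifit3, against 3.69% of all genes, and the 1 higher one was Oas3, against 3%. With the block there were 8, with Oas1a, Usp18, Ifih1 and Parp9 added on the higher side, against 18.4% of all genes (7.99% higher and 10.4% lower). The lowest adjusted p of any member was 0.281 without the block and 0.0767 with it, both for Ifit1, and over all alternatives run that of Ifit1 lay between 0.0767 and 0.9999.

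The tested members leaned to higher values in FOG1 ki/ki, while the 3 Ifit genes lay lower. Of the 32, 22 read higher and 10 lower, with a median log2 difference of 0.20 (quartiles -0.02 and 0.33), where 55.1% of all genes read higher with a median of 0.03. All differences are FOG1 ki/ki minus control on the scale of log2(signal + 16), on which dim genes change less than their signals do. Leaving out control replicate 1 gave a median of 0.05, leaving out FOG1 ki/ki replicate 1 gave 0.08, and leaving out both gave -0.04. The control and FOG1 ki/ki arrays did not overlap for 7 of the 32, where that held for 11.3% of all genes. These were Oas3, Ifi35, Ifih1, Irf9 and Parp9 on the higher side (6.32% of all genes) and Ifit1 and Ifit2 on the lower side (4.93%).

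**Figure D1:**
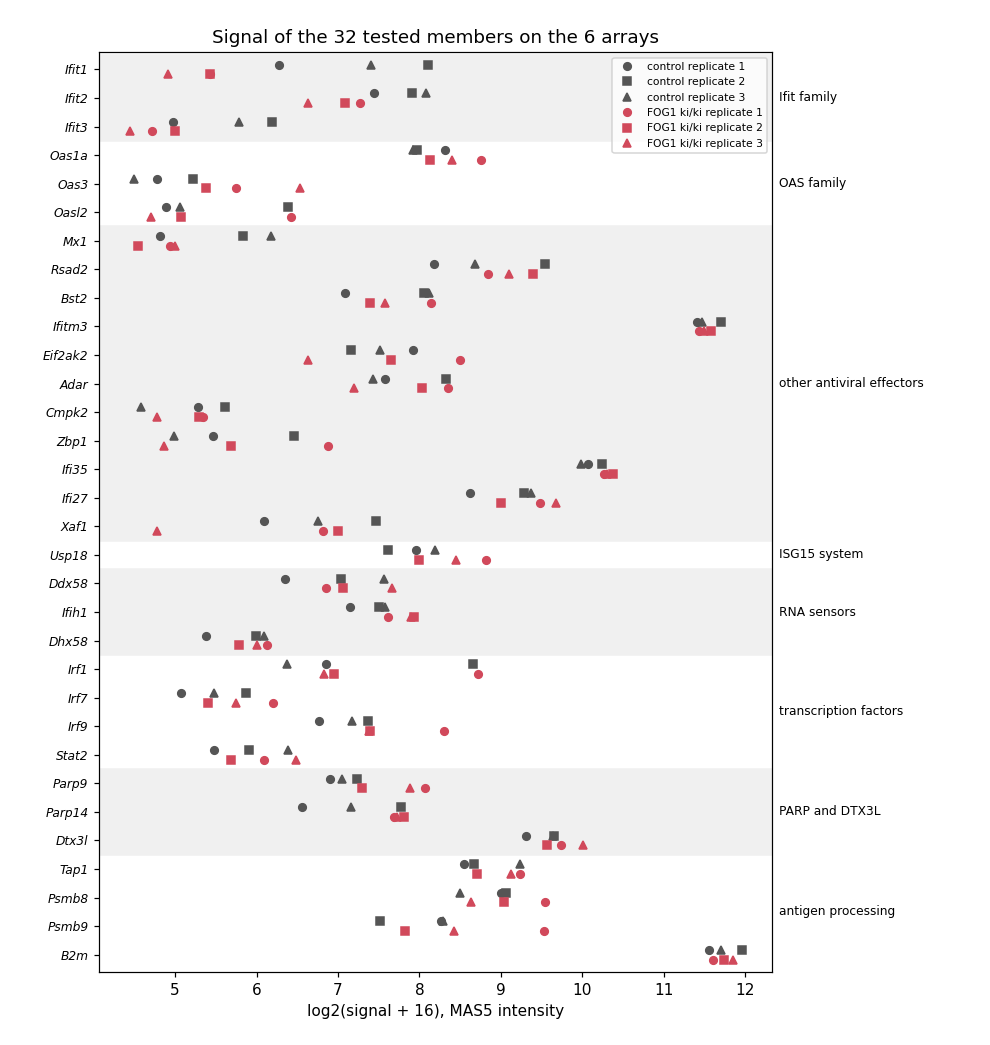
Signal of each of the 32 tested members on each of the 6 arrays, on the log2(signal + 16) scale, with grey points for control and red points for FOG1 ki/ki and a marker shape per replicate number. The red points of Ifit1 and Ifit2 lie to the left of all grey points, those of Oas3, Ifi35, Ifih1, Irf9 and Parp9 to the right, and the groups overlap for the other members.

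The Ifit genes encode proteins that bind viral RNA and block its translation. Ifit1 had signals of 61.1, 260.2 and 154 in control replicates 1 to 3, and of 26.9, 27.2 and 14.0 in FOG1 ki/ki replicates 1 to 3. All 3 FOG1 ki/ki arrays read below the lowest control array, and the control arrays themselves spread widely. The group means were 158 ± 99.6 and 22.7 ± 7.52 (SD, n = 3 each), and the log2 difference was -2.01 (SE 0.47, 95% interval -3.10 to -0.91, limma adjusted p = 0.281). With a pseudocount of 1 it was -2.58 and with one of 64 it was -1.26.

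Ifit2 had signals of 158, 224 and 255 in controls and of 138, 119.9 and 83.3 in FOG1 ki/ki, replicates 1 to 3. The groups did not overlap, but replicate 1 of the groups lay close together. The log2 difference was -0.82 (SE 0.30, limma adjusted p = 0.618). Ifit3 had signals of 15.3, 57.0 and 39.1 in controls and of 10.2, 15.8 and 5.70 in FOG1 ki/ki, several of them near background. Here FOG1 ki/ki replicate 2 read above control replicate 1, so the groups overlapped. The log2 difference was -0.93 (SE 0.36, limma adjusted p = 0.641). It was -1.64 with a pseudocount of 1 and -0.42 with one of 64. The 3 Ifit genes were the only tested members that read lower in all 3 pairs, which held for 19.3% of all genes.

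The Ifit genes lie side by side on chromosome 19. The RefSeq table served to name the 8 protein-coding genes to either side of them, which were chosen for description after the Ifit values had been seen. Of the 22 genes in this stretch 15 were tested, 6 were under the filter and 1 had no probe set of its own. Of the 15, 10 read lower in FOG1 ki/ki, where 55.1% of all genes read higher. Among the 10 was a run of 9 tested genes in a row, from Acta2 through Slc16a12. Its ends were set by where the tested genes stopped reading lower. All 9 were lower in each of the 3 pairs, which held for 19.3% of all genes. Since the 9 were picked for reading lower, that share is no test of the run. The 9 include the 3 Ifit genes that prompted the look. The groups did not overlap for 4 of the 9 (Fas, Ifit2, Ifit1bl1 and Ifit1), which held on the lower side for 4.93% of all genes. Ifit1 and Ifit2 are members already counted above. The groups overlapped for Acta2, Ch25h, Lipa, Ifit3 and Slc16a12. The 6 tested genes beyond the run lay near or above control, with Stambpl1 at 0.33 on one side and Pank1 at 0.70 and Kif20b at 0.60 on the other.

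Fas, a death receptor gene separated from Ifit2 by Ch25h and Lipa, had signals of 216, 299.8 and 288 in controls and of 71.3, 73.5 and 73.1 in FOG1 ki/ki. The groups were far apart and the FOG1 ki/ki arrays nearly equal. Its log2 difference was -1.67 (SE 0.26, limma adjusted p = 0.0912). Under the replicate block Fas passed the test and so fell, with an adjusted p of 0.0295. Ifit1bl1, an Ifit1-like gene within the cluster, was at -0.99 (limma adjusted p = 0.676), and Slc16a12, a transporter gene beyond it, at -1.20 (adjusted p = 0.68). Lipa, the lysosomal acid lipase gene, was at -0.97, Ch25h, which makes 25-hydroxycholesterol, at -0.51, and Acta2, a smooth muscle actin, at -0.87 with an SE of 1.43. Acta2 is also in the stromal marker list described below. The labels give no genotype at chromosome 19. The part of strain background in this run was not tested, nor was that of the other cells described below.

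**Figure D2:**
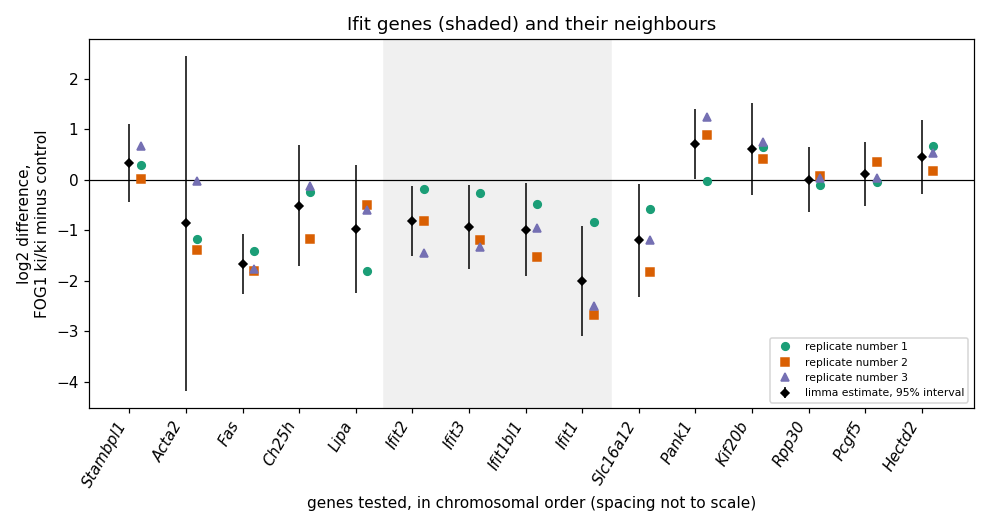
Log2 difference of FOG1 ki/ki minus control for the 15 tested genes around the Ifit cluster, in chromosomal order and not to scale, with limma's 95% intervals (black) and the 3 pair differences (coloured). The run from Acta2 to Slc16a12, picked for reading lower, lies below 0 in all pairs. The lowest limma estimates are those of Ifit1 at -2.01 and Fas at -1.67, while those of Pank1 (0.70) and Kif20b (0.60) lie above 0.

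The OAS proteins sense double-stranded RNA and make the second messenger that switches on RNase L. Oas3 had signals of 11.3, 21.1 and 6.48 in controls and of 37.7, 25.5 and 76.8 in FOG1 ki/ki, replicates 1 to 3. The groups did not overlap, although the control arrays were near background and replicate 2 of the groups differed little. The log2 difference was 1.06 (SE 0.37, limma adjusted p = 0.553), or 1.77 with a pseudocount of 1 and 0.50 with one of 64. Oas1a, at 301, 234 and 227 in controls and 418, 265 and 322 in FOG1 ki/ki, read higher in each pair. Its groups overlapped, and its log2 difference was 0.37 (SE 0.25, limma adjusted p = 0.948). Oasl2, an OAS-like gene, differed by -0.05, and Oas2 and Oasl1 had group means between 3.66 and 10.3, too dim to test.

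Parp9 and Dtx3l form a complex that modifies histones and viral proteins, and Parp14 is a related ADP-ribosyltransferase. Parp9 had signals of 104, 135 and 117 in controls and of 253, 140.5 and 219.6 in FOG1 ki/ki. Replicates 1 and 3 of FOG1 ki/ki stood well above the controls and replicate 2 just above them. The log2 difference was 0.68 (SE 0.29, limma adjusted p = 0.746). Dtx3l read 619, 787 and 779 in controls and 839, 743 and 1018 in FOG1 ki/ki, with overlapping groups and a difference of 0.24 (SE 0.19, limma adjusted p = 0.968). Leaving out control replicate 1 gave 0.13, and leaving out FOG1 ki/ki replicate 3 gave 0.12. Parp14 differed by 0.57, and all 3 of its FOG1 ki/ki arrays lay between 190.2 and 208 against 78.3 to 204 in controls.

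Of the RNA sensors, Ifih1 (MDA5), which detects long double-stranded RNA, had signals of 125, 165 and 174 in controls and of 179, 228 and 221 in FOG1 ki/ki. The groups were adjacent without overlapping, and the 3 pair differences were close, at 0.47, 0.43 and 0.32. Its log2 difference was 0.41 (SE 0.26, limma adjusted p = 0.939). Ddx58 (RIG-I), which detects RNA ends that bear a triphosphate, differed by 0.21 and Dhx58 (LGP2), a regulator of the other sensors, by 0.15. Usp18, which strips Isg15 from proteins and dampens the type I receptor, had a difference of 0.50 (SE 0.29, limma adjusted p = 0.919) and was higher in each pair.

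All 4 transcription factors tested read higher, by 0.16 to 0.59, beside 55.1% of all genes, and none passed. Their pair medians were 1.33, -0.35 and 0.24, and only 1 of the 4 read higher in pair 2. Irf9, the DNA-binding subunit of the type I complex, had signals of 92.6, 149 and 128 in controls and of 299, 152 and 151 in FOG1 ki/ki. The groups did not overlap, but only replicate 1 of FOG1 ki/ki stood apart. The log2 difference was 0.59 (SE 0.34, limma adjusted p = 0.916), or 0.29 without FOG1 ki/ki replicate 1. Irf1, a factor induced early by interferon gamma, had signals of 99.8, 389 and 67.0 in controls and of 407, 108 and 98.0 in FOG1 ki/ki. Control replicate 2 and FOG1 ki/ki replicate 1 stood well above the other 4 arrays. Its groups overlapped almost wholly, with a difference of 0.20 (SE 0.71). Irf7, which drives interferon genes, differed by 0.31 and Stat2 by 0.16.

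Among the other antiviral effectors 6 read higher and 5 lower, with a median log2 difference of 0.06. Ifi35, a binding partner of the signalling protein Nmi, had signals of 1062, 1199 and 998 in controls and of 1215, 1314 and 1243 in FOG1 ki/ki. The groups did not overlap, though the step between them was small. The log2 difference was 0.21 (SE 0.14, limma adjusted p = 0.939). The other 2 Ifi35 probe sets were dimmer, with group means of 89.3 to 125, and gave 0.22 and 0.26 with overlapping groups. Ifitm3, a membrane protein that blocks virus entry, read 2705, 3332 and 2821 in controls and 2749.8, 3048 and 2882 in FOG1 ki/ki. The groups covered the same range, and the 95% interval of the difference was -0.28 to 0.23 around -0.02. Ifi27, a mitochondrial protein, read 377, 608 and 646 in controls and 697, 498 and 801 in FOG1 ki/ki. The groups overlapped, and the difference was 0.29 (SE 0.27), or 0.06 with control replicate 1 left out and 0.15 with FOG1 ki/ki replicate 3 left out.

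Mx1, a GTPase that traps viral nucleoproteins, had signals of 12, 41.2 and 56.0 in controls and of 14.6, 7.30 and 16 in FOG1 ki/ki. Only control replicates 2 and 3 stood out, and the log2 difference was -0.78 (SE 0.38, limma adjusted p = 0.84). Mx2 was under the filter, with group means of 3.92 and 0.43. Rsad2 (viperin), which makes a chain-terminating nucleotide, differed by 0.32, and Bst2 (tetherin), which holds budding virus at the cell surface, by -0.04. The double-stranded RNA kinase Eif2ak2 differed by 0.06, the RNA editing enzyme Adar by 0.08, the Z-nucleic acid sensor Zbp1 by 0.17, the nucleotide kinase Cmpk2 by -0.02 and Xaf1, which binds an inhibitor of apoptosis, by -0.57. A second Xaf1 probe set gave 0.47, so the sign for this gene depended on the probe set. In the tested members 13 further probe sets were above the filter, and the other 12 had the sign of the brightest one.

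None of the 4 antigen processing members passed the test, and only B2m had a narrow interval around 0. B2m read 2984, 3959 and 3314 in controls and 3106, 3399.7 and 3672 in FOG1 ki/ki. The groups covered the same range, with a difference of -0.0046 and a 95% interval of -0.30 to 0.29. Tap1, a subunit of the peptide transporter, differed by 0.20 (95% interval -0.40 to 0.80). The immunoproteasome subunits Psmb8 and Psmb9 differed by 0.22 (-0.44 to 0.88) and 0.57 (-0.47 to 1.61). Psmb9 read 292, 167 and 297 in controls and 723, 211 and 329 in FOG1 ki/ki. Its high mean in FOG1 ki/ki came from replicate 1. The RefSeq windows of Tap1 and Psmb9 overlap by 275 bases on opposite strands, and the pair differences of these neighbours were 0.68, 0.04 and -0.11 for Tap1 against 1.26, 0.31 and 0.14 for Psmb9.

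**Figure D3:**
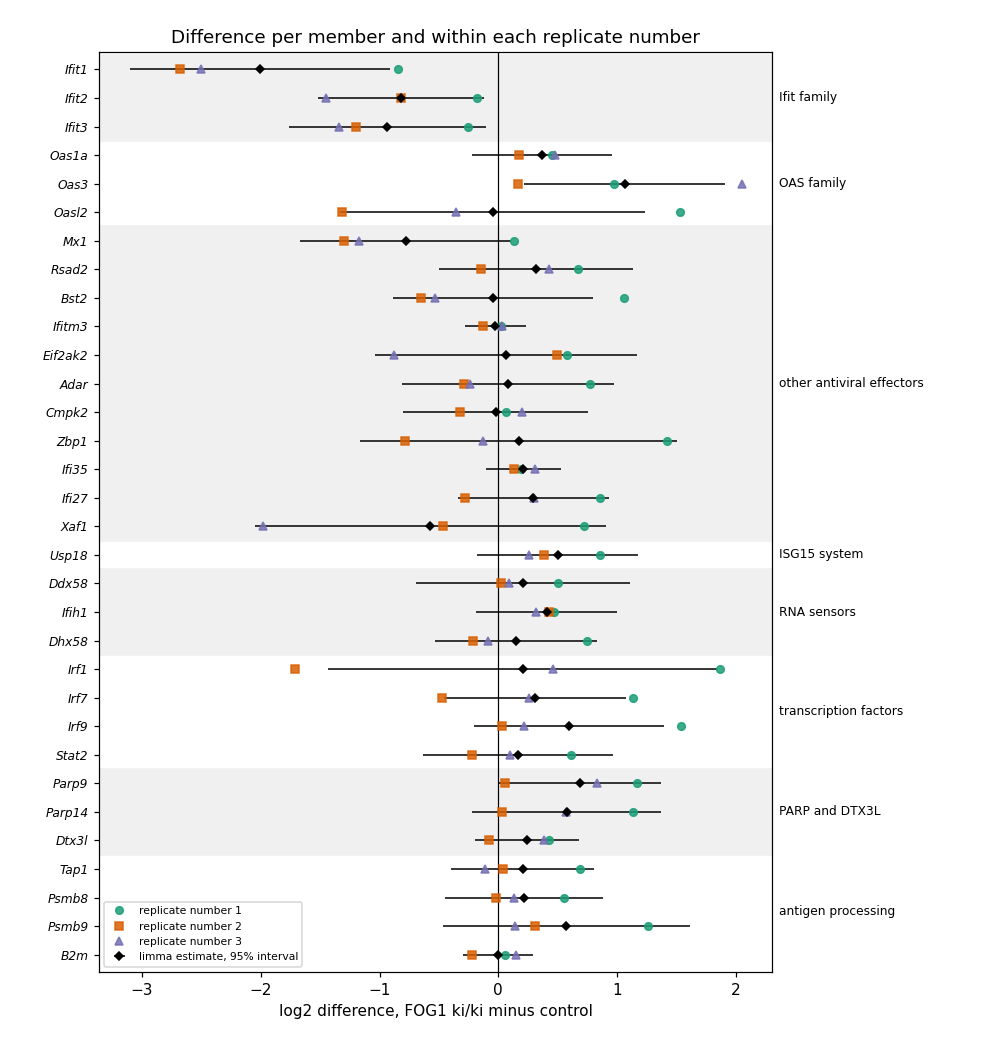
Log2 difference of FOG1 ki/ki minus control for each of the 32 tested members, with limma's 95% interval (black diamonds and lines) and the difference within each replicate number (coloured markers), grouped by role. The 3 Ifit genes lie below 0 for every replicate number, and for most other members the green point of replicate number 1 lies furthest to the right.

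The members' differences were unlike in the 3 pairs. In pair 1, 29 of the 32 read higher in FOG1 ki/ki, with a median log2 difference of 0.68, where 49.9% of all genes read higher with a median of -4.35e-05. In pair 2, 12 of the 32 read higher, with a median of -0.18 (55.6% and 0.04 over all genes). In pair 3, which compares FOG1 ki/ki with the FOG1+/+ control, 20 read higher, with a median of 0.14 (54.4% and 0.05). The arrays of pair 3 also had the lowest array medians and values rounded otherwise. The FOG1+/+ genotype cannot be told apart from these traits. All 3 exceptions in pair 1 were the Ifit genes. Of the 32, 17 were higher in pair 1 and lower in pair 2, which held for 15.9% of all genes, and 0 went the opposite way, which held for 21.6%. The same direction in all 3 pairs was seen for 44.2% of all genes. In all 3 pairs 10 members were higher, beside 24.8% of all genes: Oas1a, Oas3, Ifi35, Usp18, Ddx58, Ifih1, Irf9, Parp9, Parp14 and Psmb9.

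**Figure D4:**
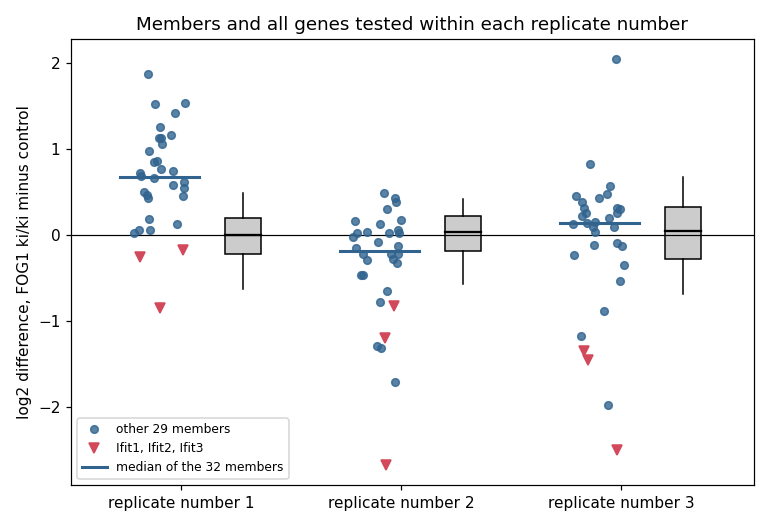
Log2 difference of FOG1 ki/ki minus control within each replicate number, for the 29 other tested members (blue circles) and the 3 Ifit genes (red triangles), with the median of all 32 (blue line). Grey boxes give the quartiles of all 11260 genes, their line the median and the whiskers the central 80%, and the members' median is 0.68, -0.18 and 0.14 for replicate numbers 1, 2 and 3.

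On the arrays themselves, control replicate 1 was low and FOG1 ki/ki replicate 1 high. For 15 of the 32 members control replicate 1 was the lowest of the 6 arrays, and for 14 FOG1 ki/ki replicate 1 was the highest. Over all genes these shares were 17% and 16%. Relative to each gene's mean over the 6 arrays, the median member stood at -0.38 in control replicate 1 and at 0.28 in FOG1 ki/ki replicate 1, and between -0.10 and 0.15 in the other 4. Control replicate 2 was the next highest, at 0.15, with 20 of the 32 members above their mean.

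A subset was high on control replicate 2 and FOG1 ki/ki replicate 1 together, a pattern noticed in the values. These were the 2 highest arrays for 7 members, Oasl2, Adar, Cmpk2, Zbp1, Irf1, Irf7 and Psmb8, and for 2.47% of all genes. Oasl2 read 67.3 and 69.5 on these arrays and 10.1 to 17.5 on the other 4. Zbp1 read 72.2 and 102 there and 13.1 to 35.3 elsewhere. For others the step was small, as for Cmpk2, at 32.8 and 24.6 there and up to 23.1 elsewhere, and for Psmb8, whose control replicate 2 read 520.3 against 512 in FOG1 ki/ki replicate 2. Of 45 other interferon-stimulated genes tested, 6 had the same 2 highest arrays, Rtp4, Iigp1, Parp12, Slfn8, Gbp2 and Gbp3 (13.3%). Over all pathway lists together it was 9 of 99 (9.09%). Iigp1, an immunity-related GTPase, read 207 in FOG1 ki/ki replicate 1, 12 in control replicate 2 and 1.79 to 7.10 on the rest.

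Markers of other cells also read differently between the replicate numbers. In bulk RNA a change in the number of such cells and a change in RNA per cell cannot be told apart. Nor can expression of a marker by the megakaryocytes themselves. All 16 monocyte and macrophage markers tested read lower in FOG1 ki/ki, with pair medians of -1.87, -0.42 and -0.30. Their summed signal was 9801 to 17873 in controls and 4706 to 13569 in FOG1 ki/ki, and it was lowest in FOG1 ki/ki replicate 1, the array on which the members were highest. The macrophage receptors Adgre1 (F4/80) and Csf1r were present on every array, at 49.8 and 349 in FOG1 ki/ki replicate 1 and at 338 to 643 and 1267 to 2513 on the other 5. All 10 mast cell and basophil markers tested read higher, with sums of 748 to 4317 in controls and 8221 to 8608 in FOG1 ki/ki. Ms4a2, a chain of the IgE receptor, rose under the replicate block (limma adjusted p = 0.00902) but did not pass without it (adjusted p = 0.255). Stromal markers were lower in 11 of 12 cases, with sums of 311 to 9754 and 239.5 to 4035. The 8 dendritic cell markers with a probe set summed to 139.9 to 584 and 108.5 to 364. Of these, 6 lay under the filter, and the 2 tested went opposite ways, Itgax at -1.20 and Zbtb46 at 0.60. Itgax alone read 520.5 of the 584 in control replicate 2. Siglech, which marks plasmacytoid dendritic cells, had a highest signal of 5.50, and Col1a1, a collagen of stroma, ranged from 25.8 to 2036 over the 6 arrays. Neutrophil markers summed to 13188, 15956 and 2774 in controls and to 9337, 16406 and 3945 in FOG1 ki/ki, and 0 of 10 read higher in pair 1. Of 8 endothelial markers tested 3 read higher and 5 lower, and Tek, an angiopoietin receptor, rose under the replicate block (limma adjusted p = 0.0437) but did not pass without it (adjusted p = 0.0912). The cultures had the megakaryocyte markers on every array, where Pf4, platelet factor 4, read 3358 to 4156 and Itga2b, the integrin CD41, 1843 to 3309. All 10 megakaryocyte markers tested read lower in FOG1 ki/ki, with a median of -0.16, and 0 passed in either fit. The lowest was Tubb1, a platelet tubulin, at -1.01 with groups that did not overlap (limma adjusted p = 0.218), while Pf4 was at -0.0028 and Itga2b at -0.07. The part of these other cells in the members' values was not tested.

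Control replicate 1 was also the only array from female cells. It had a signal of 807 for Xist and 2.50 for the Y-linked Eif2s3y, while the other 5 arrays had 0.30 to 4.60 and 841 to 1186. The part of sex in the pair 1 differences was not tested.

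The wider pathway was read from lists of interferon ligands, receptors, adaptors, further induced genes and antigen presentation genes. Of 99 such genes tested 1 passed without the block, where 0.151% of all genes did, and 1 with it, where 0.835% did. In both fits this was Gbp6, a guanylate-binding protein. It rose from 64.5, 90.3 and 32 in controls to 1195, 890.5 and 834 in FOG1 ki/ki, by 3.72 on the log2 scale (SE 0.34, limma adjusted p = 0.0239). It did not pass with control replicate 1 or any 1 of the FOG1 ki/ki arrays left out. No array of one group came near the other. No tested member and no other pathway gene had a difference of this size. Gbp7, a relative, read 573 and 879 (group means), with a log2 difference of 0.59 (adjusted p = 0.503).

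Interferon ligands were at background. Of 18 listed 10 had a probe set of their own, and 9 of these lay under the filter with no signal above 6.80 on any array. Ifnz, also called limitin, was the exception, with group means of 33.7 and 55.8 (log2 difference 0.57, limma adjusted p = 0.912). Of 12 receptor and signalling genes 10 read lower, with a median of -0.38, and 0 passed. Ifngr2, a chain of the interferon gamma receptor, read 90.8, 94.0 and 40.6 in controls and 20.5, 47.4 and 9.32 in FOG1 ki/ki. Only FOG1 ki/ki replicate 2 lay within the control range, and the log2 difference was -1.17 (SE 0.43, limma adjusted p = 0.618). The type I receptor chains Ifnar1 and Ifnar2 differed by -0.44 and -0.43, and Stat3, a factor of cytokine signalling, by -0.54 (adjusted p = 0.645).

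Of 12 sensor adaptor genes 5 read higher and 7 lower and 0 passed. Trim25, the ubiquitin ligase that activates RIG-I, differed by 0.66 (limma adjusted p = 0.553), and Tlr7, an endosomal RNA receptor, by -0.88 (adjusted p = 0.633). Of 45 other interferon-stimulated genes 22 read higher and 23 lower, with a median of -0.03 against 0.20 for the members. Oas1c, an OAS paralog, was at 0.74 (adjusted p = 0.58).

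Of 20 class I antigen presentation genes 12 read higher and 8 lower, with a median of 0.02, and 0 passed. The class I heavy chains H2-K1 and H2-D1 differed by -0.06 and -0.07, while H2-T24, a class Ib gene, was at -1.04 (limma adjusted p = 0.612) and H2-Q10 at 0.74 (adjusted p = 0.65). The class II list was divided, with 6 of 9 genes lower and 0 past the test. H2-Ob read 72.7, 53.3 and 67.1 in controls and 137, 207 and 191 in FOG1 ki/ki. H2-Oa read 46.5, 59.3 and 13.4 in controls and 87.8, 146 and 109 in FOG1 ki/ki. Together these encode H2-O, an inhibitor of class II peptide loading, and for both genes the groups did not overlap. The differences were 1.26 for H2-Ob (SE 0.28, limma adjusted p = 0.242) and 1.31 for H2-Oa (SE 0.41, adjusted p = 0.465). The class II chains H2-Aa, H2-Ab1 and H2-Eb1, which macrophages and dendritic cells express, were at -0.62, -0.44 and -0.75.

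**Figure D5:**
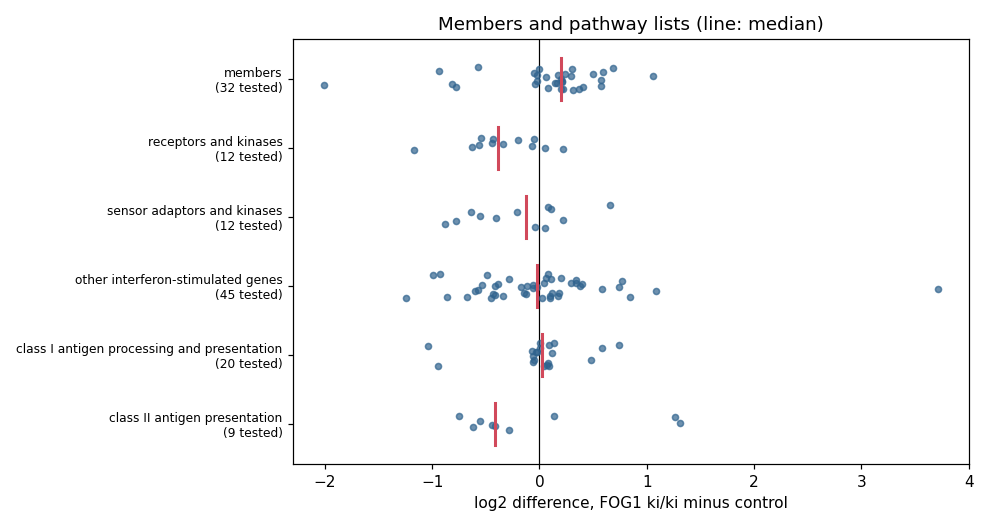
Log2 difference of FOG1 ki/ki minus control for each tested gene (points) of the members and of 5 pathway lists, with the median of each list (red line). Gbp6 at 3.72 is the point furthest to the right, and the medians are 0.20 for the members, -0.38 for receptors and kinases and -0.03 for other interferon-stimulated genes.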

How the data were processed

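The authors deposited linear intensities, which the submitters' processing notes credit to MAS5, with 1 value for each probe set and array. Each column had a 2% trimmed mean of 150, so the arrays had been scaled to 1 target. Array medians were 5.93 to 12.3. The arrays numbered 3 had the 2 lowest medians, 7.75 and 5.93, and 0.0909% and 0.0776% of their values were rounded to 1 decimal, against 100% on the other 4. The labels' protocols name NuGEN Ovation reagents for amplification and biotin labelling. Scanner files were not used here.

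Of 45101 probe sets, the 64 control probe sets and those with several symbols (932) or none (9160) were left out. Intensities were analysed as log2(signal + 16). Probe sets in the lower 50% of mean brightness were dropped, and each gene was read from its brightest probe set, giving 11260 genes. The contrast of FOG1 ki/ki against control came from limma 3.58.1 under R 4.3.3 (lmFit, then eBayes with a trend, two-sided), with Benjamini-Hochberg adjustment over all genes and a threshold of 0.05. Python 3.11.15 with pandas 2.3.3 did the rest. The fit was tested on simulated data with independent noise on each array. These data held no likeness between same-numbered arrays, so that test does not cover such a likeness in the real arrays. MAS5 values are noisy near background, and the number of arrays limits the precision.

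Both groups carry replicate numbers 1 to 3, and deviations from the group means correlated at 0.438, 0.648 and 0.597 between same-numbered arrays, so the numbers were read as pairs, from the data, since the labels do not say what a number shares. That check ran over the probe sets above the filter. The fit without the block is the main one.

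The members and lists were chosen with earlier results of these data known. Values of every array are given for members whose groups do not overlap, the 3 smallest p in each direction and the 5 brightest probe sets. Other members whose arrays are given (Oas1a, Oasl2, Zbp1, Irf1, Mx1 and Psmb9) were chosen after their values were seen, as were Fas, Cmpk2, Psmb8, Tubb1, Tek and Iigp1. Of each pathway list, genes past the test and the 2 with the smallest p are named. Ifnar1, Ifnar2, H2-K1, H2-D1, H2-Aa, H2-Ab1 and H2-Eb1 were added for their roles. Settings varied were the pseudocount, normalization, filter, probe set choice, replicate block, eBayes trend and arrays left out.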

Additional observations from a re-analysis of the deposited data

How the results depend on the processing

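The count of 0 members past the threshold was the same under every alternative run, from other pseudocounts, scalings and filters to the replicate block and arrays left out. The count over all genes was 17, or 8 with a pseudocount of 1, 1 with no filter on dim probe sets, 3 with the lower 75% of probe sets left out, and 94 with the replicate block. It was 1 to 2 with 1 array left out and 0 with both arrays of any 1 replicate number left out. The pathway count of 1 (Gbp6) was 0 with no filter or with both arrays of any 1 replicate number left out, and 0 to 1 with 1 array left out (0 without control replicate 1 or any 1 FOG1 ki/ki array). The members' median of 0.20 ranged from 0.05 to 0.31 with 1 array left out, and turned to -0.04 with both arrays numbered 1 left out. B2m and Ifitm3, close to 0, turned sign, to 0.102 and 0.0271, with both arrays numbered 2 left out, and ranged from -0.0975 to 0.106 and from -0.0845 to 0.0651 with 1 array left out. The other 10 members named by rule kept their direction in all alternatives run, and none passed, though Ifit1, Ifit3 and Oas3 were too dim to test with the lower 75% left out. The replicate block changed no call among the members. The shorter core GAAANNGAA was in 15 of 28 member windows, against 13 with the full motif.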
